A study of Trichechus manatus latirostris with 11 samples.

Results

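The cytosolic ribosomal proteins and the factors that start and extend the peptide chain were read in RNA from the buffy coat, where the white cells of spun blood collect, of 11 Florida manatees. Members were chosen by a rule on gene names, as rows whose RefSeq symbol in the TriManLat1.0 annotation is that of a large subunit protein (RPL, RPLP), a small subunit protein (RPS, RPSA), an initiation factor (EIF1 to EIF6, with or without a letter and a number after it) or an elongation factor (EEF1, EEF2). The rule found 102 of 15298 rows, which carried 99 different symbols: 39 rows of the large subunit, 27 of the small subunit, 30 of initiation and 6 of elongation. The annotation holds 122 symbols that fit the rule, and 23 of them, among them RPL10, RPL15, RPS14, EIF3D, EIF4G1, EIF4G2, EIF6 and EEF1B2, had no row and were not analysed here. The name rule also takes in EEF2K, a kinase that switches off elongation factor eEF2, and EEF1E1, a part of the multisynthetase complex.

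The red tide group comprised 4 adult manatees sampled at Lowry Park Zoo, where they were brought for treatment of red tide illness. The control group comprised 7 adult manatees, of which 4 were sampled in Crystal River, 2 in the Indian River Lagoon and 1 at the same zoo while it recovered from pneumonia. All red tide animals were thus sampled at the zoo, 2 of them as they came in and 2 only after a week of treatment. In a mean over these animals, red tide, treatment and place of sampling cannot be told apart. Ribosomal and globin RNA was depleted from every library.

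The ribosome is built from a small subunit, which reads the messenger RNA, and a large subunit, which joins the amino acids. Initiation factors bring the first tRNA and the messenger RNA to the small subunit, and elongation factors carry each further tRNA and move the ribosome along. Ribosomal protein messenger RNAs are among the most abundant in blood leukocytes, and many of them share a pyrimidine-rich start that lets the mTOR kinase set their translation together. Many also have processed pseudogenes of near-identical sequence in mammalian genomes.

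For each row the deposited values are 2 mean normalized counts, one over 4 libraries and one over 7. The overall mean weighted them 4 and 7 in every row, which are the sizes of the red tide and the control group, but the columns do not name their groups, so the means are named here by their number of libraries. Only the red tide group has 4 animals and only the control group has 7, so the weights assign the 4-library mean to red tide. The study's text conflicts with this, since it describes genes with the higher 7-library mean as raised in red tide. The table does not show why the text gives that direction. Because of this conflict, no ratio is read here as a direction of red tide against control. A group mean carries no spread between animals, and ratios of the means were therefore described without a test. Each ratio has the 4-library mean in the numerator, and log2 values are of that ratio. Size factors, by which counts were scaled to make libraries comparable, were 0.372 to 1.56 in the 4 libraries and 0.702 to 1.73 in the 7. The median log2 ratio over all 15298 rows was 0.14, and over the 5238 rows with an overall mean of at least 100 it was -0.04, so the centre of the table shifted by more than 0.1 with the weight given to weak rows. Levels of different genes were not compared, because read counts grow with transcript length and no lengths were at hand.

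Ribosomal protein rows were higher in the 4-library mean almost throughout, by small and similar amounts. Of 66 rows of the large and small subunit, 62 had the higher 4-library mean and 4 the higher 7-library mean, with a median ratio of 1.29. The higher mean was the 4-library one in 56.4% of all 15298 rows. Among all rows with an overall mean of at least 100, 47.5% had the higher 4-library mean, and among those of at least 1000 the share was 55.0%. The summed level of the 66 rows was 1.28 times as high in the 4-library mean. In bulk RNA, fewer cells of a type and less RNA per cell cannot be told apart, and the cell type markers, given after the other lists, also differed between the means. Restricted to the 61 rows with an overall mean of at least 100, none reached a 2-fold difference in either direction. Over all 15298 rows 34.3% reached it, 23.9% with the higher 4-library mean and 10.4% with the higher 7-library mean. Over the 5238 rows with a mean of at least 100 the share was 16.9%, made up of 8.76% and 8.09%. The 2 ribosomal protein rows past 2-fold, RPS18 and RPL10L, were weakly counted. The 61 rows fell into a band that was narrow beside the other genes. A total of 4 had a ratio under 1, 16 lay between 1 and 1.2, 25 between 1.2 and 1.5, and 16 between 1.5 and 2, while 52.5% of all rows of that level lay under 1. In the 52 ribosomal protein rows with a mean of at least 1000, the log2 ratio ran from -0.25 to 0.85 with an SD of 0.25 over rows, while the SD over all 1090 rows of that level was 0.88 and 55.8% of them lay inside the same limits.

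**Figure D1:**
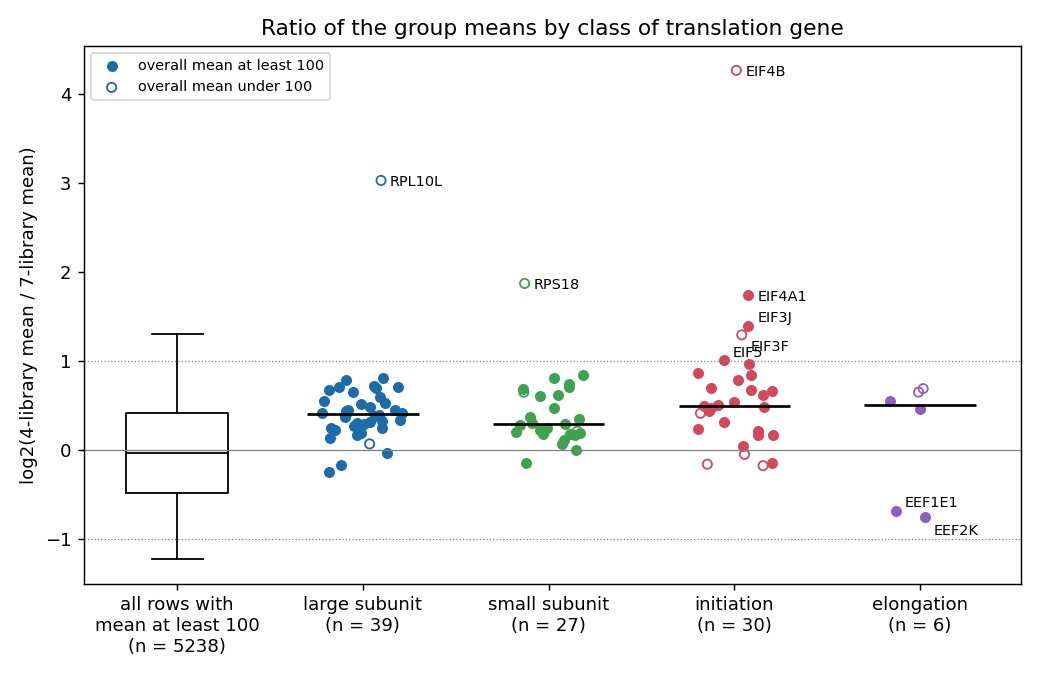
Ratio of the 2 means on a log2 scale for each row of the 4 classes (points, open where the overall mean is under 100, horizontal bar for the class median) beside all 5238 rows with an overall mean of at least 100 (box for the quartiles, whiskers for the 5th and 95th percentile). Ribosomal protein rows cluster a little above 0, at medians of 0.40 and 0.29, and the rows past 2-fold among filled points are EIF4A1, EIF3J and EIF5.

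In the large subunit 36 of 39 rows had the higher 4-library mean, at a median log2 ratio of 0.40. The largest ratios at a mean of at least 100 belonged to RPL14, with 6928 normalized counts in the 4-library mean and 3941 in the 7-library mean (ratio 1.76), and to RPL13, with 180 and 104 (1.73). RPL17, a protein at the mouth of the peptide exit tunnel, followed with 2308 and 1400 (1.65), and RPL29 with 1299 and 793 (1.64). RPL4, which reaches into the same tunnel, had means of 15673 and 10355 (1.51). RPL3, at the peptidyl transferase centre, had 9357 and 5744 (1.63). Partners in the 5S particle had unlike ratios. RPL5 had 12937 and 8101 (log2 0.68), and RPL11, which binds the 5S RNA with it, had 3211 and 2808 (log2 0.19).

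The 3 large subunit rows with the higher 7-library mean differed by little. RPLP2, one of the acidic proteins of the stalk that recruits elongation factors, had 1668 normalized counts in the 4-library mean and 1980 in the 7-library mean, a ratio of 0.842. RPL35A had 2489 and 2798 (0.890), and RPL36A had 3789 and 3878 (0.977). The other stalk proteins lay above 1: RPLP1 had 1505 and 1268 (1.19), RPLP0 had 35.5 and 33.9 (1.05), and RPL12, at the base of the stalk, had 981 and 738 (1.33). RPL10L, a copy of RPL10 best known from testis, rested on 1 read in the 4 libraries together and 1 read in the 7, and no ratio is read from it.

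In the small subunit 26 of 27 rows had the higher 4-library mean, at a median log2 ratio of 0.29. At a mean of at least 100 the largest ratios were those of RPS9, with 1523 normalized counts in the 4-library mean and 847 in the 7-library mean (ratio 1.80), RPS28, with 401 and 228 (1.76), and RPS6, the ribosomal target of the S6 kinases, with 6124 and 3660 (1.67). RPS27L, a paralog of RPS27 known as a p53 target, had 681 and 416 (1.64), against 7077 and 6227 (1.14) for RPS27. RPS2, at the messenger RNA entry, had 6637 and 4130 (1.61), and its neighbour RPS3 had 1238 and 1149 (1.08). The single row with the higher 7-library mean was RPS15A, at 13282 and 14692 (0.904). RPS3A lay at 4747 and 4738 (1.00) and RPS21 at 186 and 178 (1.04). RPS4X had 12471 and 10219 (1.22). The largest ratio of the class, 3.65, was that of RPS18, whose row held only 19.4 and 5.30 normalized counts. Of the rows with a mean of at least 100, 10 of 24 in the small subunit and 6 of 37 in the large subunit had a ratio between 1 and 1.2, a difference that was not tested.

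**Figure D2:**
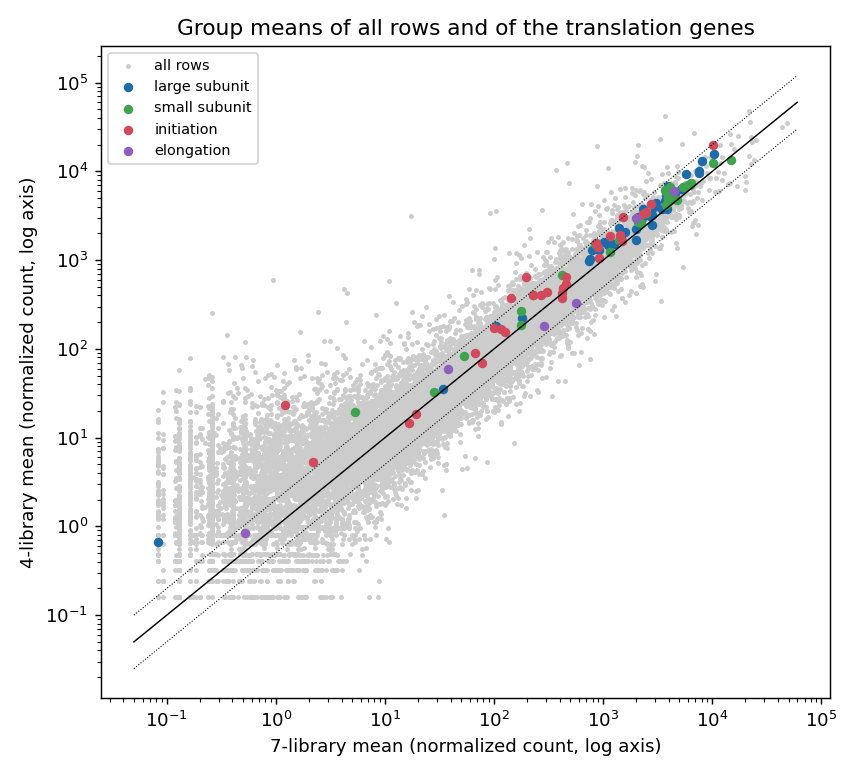
4-library mean against 7-library mean of all 15298 rows (grey) and of the members by class (coloured), both in normalized counts on log axes, with lines for equal means (solid) and for a 2-fold difference (dotted). Members with high means run along the upper side of the line of equal means, and the scatter of all rows widens toward low means.

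Initiation factors were spread more widely than ribosomal proteins, except among the most highly counted rows. At an overall mean of at least 100 the SD of the log2 ratio over rows was 0.42 against 0.25. At a mean of at least 1000 it was 0.26 over 10 initiation rows and 0.25 over 52 ribosomal protein rows. Of the 30 initiation rows 26 had the higher 4-library mean, at a median log2 ratio of 0.50. In 5 of the 30 rows the 4-library mean was at least 2 times the 7-library mean, beside 23.9% of all rows. In none was the 7-library mean 2 times higher, beside 10.4% of all rows. Among the 24 rows with an overall mean of at least 100 the count was 3, or 12.5%, beside 8.76% of all rows of that level; with so few rows this share is near the background. These 3 were EIF4A1, EIF3J and EIF5, which lay at the 97.5th, 95.7th and 91.3th percentile of the ratios of those 5238 rows. A ratio of at least 1.5 with the higher 4-library mean was found in 11 of the 24 rows, beside 18.5% of all rows of that level.

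The eIF4A helicases, which unwind the start of the messenger RNA, all had the higher 4-library mean, and EIF4A1 had the highest ratio of the initiation factors with a mean of at least 100. EIF4A1 had 653 normalized counts in the 4-library mean and 196 in the 7-library mean, a ratio of 3.33. EIF4A2 had 19864 and 10206, a ratio of 1.95. EIF4A3, which despite its name is a core protein of the exon junction complex, had 1568 and 861 (1.82). The helicase cofactor EIF4H had 2 rows with ratios of 1.79 and 1.73. The cofactor EIF4B also had 2 rows, and they differed: XM_004373997.1 had 432 and 306 (1.41), and XM_004373998.1 had 23.3 and 1.21. The cap-binding proteins were closer to equal, with 1657 and 1474 (1.12) for EIF4E and 89.7 and 67.4 (1.33) for EIF4E2, a cap-binding relative that represses translation. EIF4A1 and EIF4A2 encode closely similar proteins, and since only uniquely mapped reads had been kept, the division of their reads is uncertain.

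In eIF3, the large scaffold on the small subunit, 9 of 10 rows had the higher 4-library mean and the 8 rows with a mean of at least 100 all did, at a median ratio of 1.49. EIF3J, a loosely bound subunit that acts at the messenger RNA channel, had 373 normalized counts in the 4-library mean and 142 in the 7-library mean (2.63). EIF3H (1.62), EIF3B (1.60) and EIF3A (1.58) followed, then EIF3E (1.41) and EIF3M (1.40), and the lowest of these ratios were those of EIF3K (1.18) and EIF3G (1.16). EIF3F, at 5.32 and 2.17 normalized counts, and EIF3L, at 18.5 and 19.1, were weakly counted rows.

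EIF5, which makes eIF2 cleave its GTP once the start codon is found, had 3058 normalized counts in the 4-library mean and 1521 in the 7-library mean (2.01). EIF5B, which joins the subunits, had 637 and 460 (1.39). EIF1, a guard of start codon choice, had 1926 and 1419 (1.36), whereas its paralog EIF1B had 377 and 417 (0.903). The subunits of eIF2B, the exchange factor that reloads eIF2, ran from 0.895 for EIF2B3 through 1.12 for EIF2B5 and 1.45 for EIF2B2 to 1.53 for EIF2B4. EIF2D, an alternative carrier of tRNA, had 14.7 and 16.6 (0.885). EIF5A and EIF5A2, the hypusine-bearing factors now counted with elongation, had ratios of 1.24 and 1.03.

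**Figure D3:**
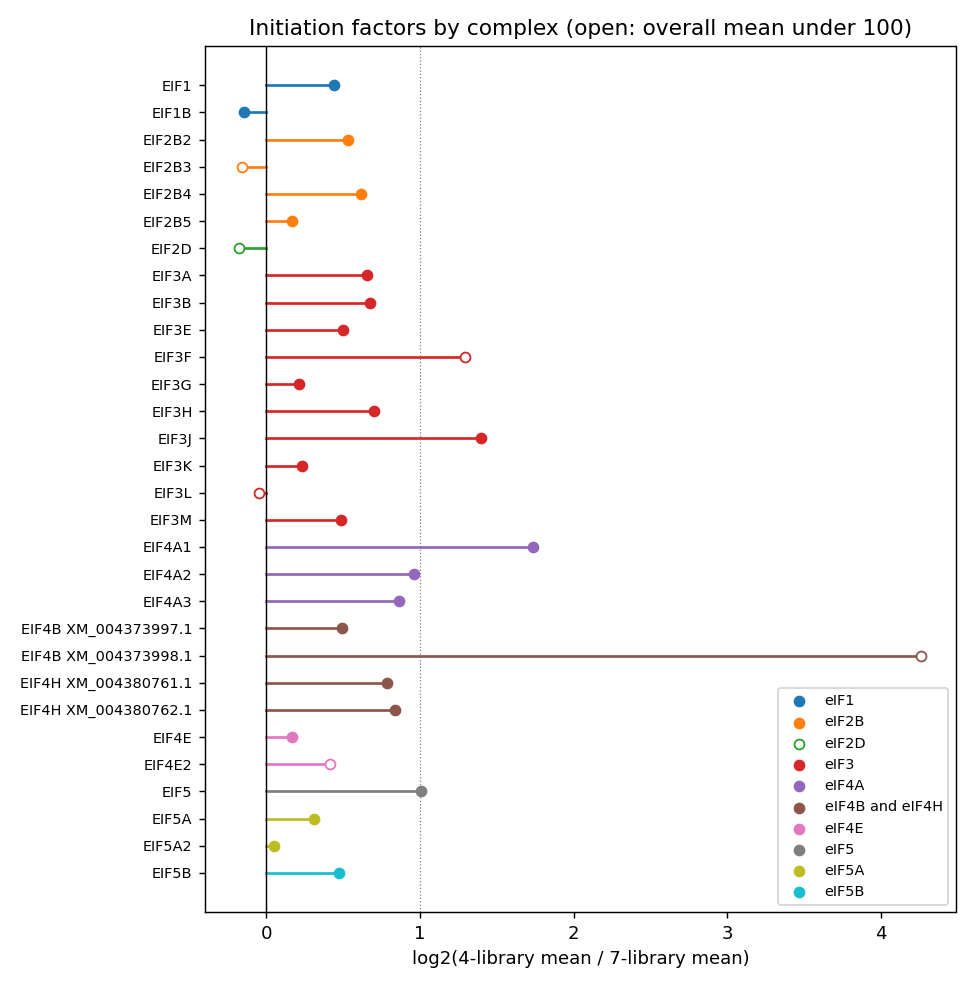
Ratio of the 2 means on a log2 scale for the 30 initiation factor rows, grouped and coloured by complex, with open points where the overall mean is under 100 and a dotted line at a 2-fold difference. The eIF4A rows, EIF3J and EIF5 reach furthest to the right among filled points, and only EIF1B among filled points lies left of 0.

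The elongation class split. The translocase EEF2 had 6083 normalized counts in the 4-library mean and 4421 in the 7-library mean (1.38), and EEF1G, a subunit of the exchange complex of eEF1A, had 2946 and 2016 (1.46). EEF1D, another subunit of that complex, was a weak row at 59.2 and 37.7 (1.57). The 2 members that do not themselves elongate were higher in the 7-library mean: EEF2K had 332 and 558 (0.595), and EEF1E1 had 180 and 288 (0.624). They were the only members at least 1.5 times higher in the 7-library mean, which 20.2% of all rows and 20.5% of rows with a mean of at least 100 were. EEF1A2, the eEF1A copy of muscle and neurons, had 2 reads over the 4 libraries and 4 reads over the 7. The 6 rows had a median log2 ratio of 0.50, and the 4 with a mean of at least 100 had one of -0.11, since EEF2K and EEF1E1 were 2 of those 4.

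Paralogs outside the name rule can be set beside their partners. RPL22L1 had 726 normalized counts in the 4-library mean and 393 in the 7-library mean (1.85), against 3795 and 3449 for RPL22. RPL7L1 had a ratio of 1.92 against 1.35 for RPL7, RPL26L1 had 1.48 against 1.18 for RPL26, and RPL36AL had 1.35 against 0.977 for RPL36A. With RPS27L and RPS27, the like-named copy had the higher ratio in all 5 of these pairs, by 0.32 to 0.75 on the log2 scale. Pairs of initiation factors were mixed. EIF4A2 and EIF4A3 differed from EIF4A1 by -0.78 and -0.87, EIF5A2 from EIF5A by -0.26, and EIF4E2 from EIF4E by 0.24. EIF1B also had a lower ratio than EIF1. No spread between animals is known for the ratios in any of these pairs. Reads that matched both copies equally well had not been kept, and the effect of this on either copy was not tested. The 2 rows of RPS24, which are records of the same gene, had 270 and 178 normalized counts (1.52) and 32.5 and 28.0 (1.16).

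For weakly counted members the whole reads of each library could be found from the digits of the group mean: in the 4 libraries for 13 rows, and in all 11 libraries for 5 of these. These rows show how far single libraries can move a mean. The reads of a library cannot be tied to an animal, and libraries are named here by their size factor. EEF1D was the steadiest: its normalized counts in the libraries of size factor 1.56, 1.03, 0.620 and 0.372 were 48.8, 68.1, 66.1 and 53.8, and each lay above the 7-library mean of 37.7. EIF4E2 had 113, 92.5, 64.5 and 88.8 in the same order, of which 3 lay above its 7-library mean of 67.4. RPS29 had 92.4, 151, 38.7 and 51.1, with 2 libraries above and 2 below its 7-library mean of 53.1. Leaving out the library of size factor 1.03 took its log2 ratio from 0.65 to 0.19.

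RPLP0 had normalized counts of 78.9, 33.1, 11.3 and 18.8 in the order of falling size factor. The library of the largest size factor gave 55.5% of its 4-library mean, and without that library the log2 ratio turned from 0.07 to -0.69. The weaker RPS24 row had 30.8, 60.4, 22.6 and 16.1, and its log2 ratio of 0.21 turned to -0.28 without the library of size factor 1.03. EIF3L had 31.4, 8.76, 25.8 and 8.07, around a 7-library mean of 19.1. EIF2B3 had 85.3, 81.8, 30.6 and 80.7. The log2 ratio of EIF2B3, -0.16, turned to 0.09 without the library of size factor 0.620, which held its lowest value. EIF2D had 24.4, 9.74, 11.3 and 13.5, around a 7-library mean of 16.6. Across the 10 members with a 4-library mean of 10 to 100, the median coefficient of variation over the 4 libraries was 0.482, beside 0.498 for all 5487 rows of that range. Whether the abundant ribosomal protein rows varied as much between libraries cannot be read from group means.

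Of the 5 members with reads in all 11 libraries, EIF4B XM_004373998.1 showed the widest gap. Its normalized counts were 22.5, 23.4, 33.8 and 13.5 in the 4 libraries, from 35, 24, 21 and 5 reads. In the 7 libraries it had 5.78 in that of the largest size factor and 2.72 in another, from 10 and 3 reads, and 5 libraries were at 0. Each of the 4 lay above each of the 7 (23.3 ± 8.35, SD, n = 4, against 1.21 ± 2.25, SD, n = 7; two-sided exact permutation test over 330 splits, p = 0.00303, the smallest p this design allows). Of the 4445 rows with reads in all 11 libraries, 2.88% had groups that did not overlap, and in 2.81% each of the 4 lay above each of the 7. Adjusted by Benjamini-Hochberg over those 4445 rows, the exact permutation p was 0.109, which was also the smallest adjusted p of any row, so that no row passed at 0.05, while 955 (21.5%) had an unadjusted p under 0.05. Reads could be found up to a mean of 100 in the 4 libraries but only up to 6 in the 7. This favours rows with the higher 4-library mean. With its 2 means exchanged this row could not have been tested. Its p and the shares of the 4445 rows therefore come from a set filtered by direction. Without the library of the largest size factor among the 7, the log2 ratio of the row moved from 4.26 to 5.68.

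RPS18 had 24.4, 21.4, 4.84 and 26.9 normalized counts in the 4 libraries, and in the 7 libraries 5.78, 5.23, 14.3, 6.83, 3.61, 0 and 1.42. Of the 4 libraries 3 lay above all of the 7 and 1 lay among them. The means were 19.4 ± 9.95 (SD, n = 4) and 5.30 ± 4.63 (SD, n = 7). The exact two-sided permutation p was 0.0152, or 0.171 adjusted over the 4445 rows. RPS18 too could be tested only because the lower mean was that of the 7 libraries, below their limit of 6. Its p therefore comes from the same set filtered by direction. EIF3F had 6.41, 6.81, 0 and 8.07 normalized counts in the 4 libraries and 0 to 7.12 in the 7, with a median of 1.31. Its groups overlapped, and the exact permutation p was 0.142. For EEF1A2 and RPL10L, with 6 and 2 reads in all, the exact permutation p was 0.555 and 0.364.

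**Figure D4:**
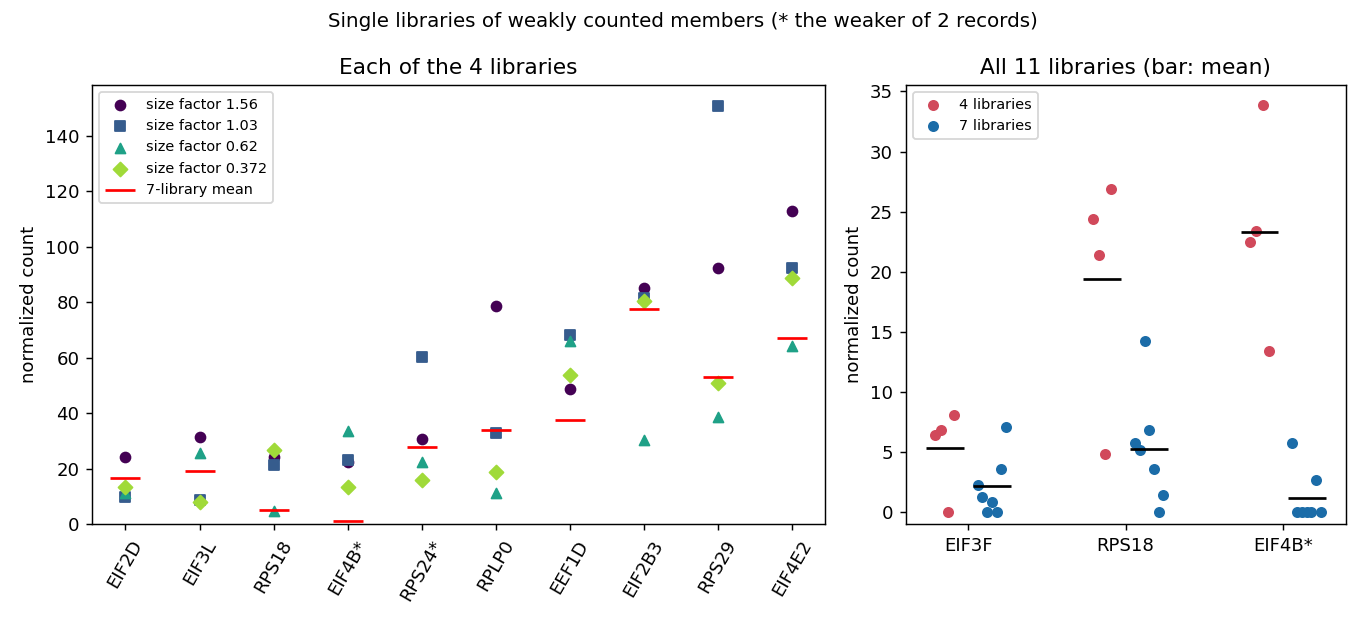
Normalized counts of single libraries for weakly counted members, on linear axes. Left, each of the 4 libraries by its size factor for the 10 members with a 4-library mean of 10 to 100, with the 7-library mean as a red bar; right, all 11 libraries for 3 members, with black bars for the group means. The 4 libraries of the weaker EIF4B row lie above all 7 others, while the RPS18 and EIF3F groups overlap.

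Translation genes outside the name rule were read from lists chosen with earlier results of these data known. Of 6 other initiation factor rows 5 had the higher 4-library mean, with the lowest ratio, 0.983, for MCTS1, and the eIF2 subunits EIF2S1, EIF2S2 and EIF2S3 had ratios of 1.74, 1.33 and 1.14. In the ribosome biogenesis list 30 of 38 rows had the higher 4-library mean, beside 56.4% of all rows, at a median log2 ratio of 0.50. At least 2 times higher in the 4-library mean were 10 rows, a share near the 23.9% of all rows, and 2 were at least 2 times higher in the 7-library mean, beside 10.4%. The RNA helicase DDX21 had 3668 normalized counts in the 4-library mean and 1207 in the 7-library mean (3.04), the atypical kinase RIOK1 had 1107 and 454 (2.44), and the small subunit processome proteins UTP18 and WDR43 had 2.42 and 2.34. In the other direction, POLR1E, a subunit of RNA polymerase I, had 40.1 and 113 (0.354), and RIOK2 had 124 and 251 (0.493). RRP12, the highest ratio of the list at 10.7, rested on means of 18.2 and 1.71.

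Release factor ETF1, which reads the stop codons, had 3877 normalized counts in the 4-library mean and 1092 in the 7-library mean (3.55), and its partner GSPT1 had 334 and 184 (1.81). The list of termination and recycling split evenly, with 4 of 8 rows in each direction and a median log2 ratio of 0.085. NEMF, a sensor of stalled large subunits, had the lowest ratio (0.717). Among the kinases and binding proteins that control translation, 12 of 18 rows had the higher 4-library mean, at a median of 0.24, and 5 rows were at least 2 times higher in it, both shares lying near those of all rows (56.4% and 23.9%). PDCD4, which binds and blocks eIF4A, had 556 and 234 (2.37) in one row and 64.7 and 11.1 (5.82) in another. PPP1R15A, which recruits the phosphatase of eIF2, had 473 and 102 (4.64). MTOR had 248 and 449 (0.551), and EIF2AK1, the heme-regulated eIF2 kinase, had 389 and 687 (0.566). RHEB, the activator of mTOR, had 1625 and 1188 (1.37). The highest ratio of the list, 11.3, belonged to a weak row of the kinase RPS6KA1 with means of 3.34 and 0.294.

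The list of nascent chain and ribosome-associated proteins was mixed. RACK1 had a ratio of 1.35, NACA 1.15 and FAU, the precursor of RPS30, 1.12, with TPT1, a much used example of a pyrimidine-start message, at 1.14 and NAP1L1 at 2.67. The 4 rows of SERBP1, which binds ribosomes, all had the higher 7-library mean, with ratios from 0.272 to 0.899 and 4-library means of at most 22.1. The list had 5 of 9 rows higher in the 4-library mean, at a median log2 ratio of 0.16. The cytosolic aminoacyl-tRNA synthetases lay near 0, at a median of 0.05 over 19 rows, from 0.607 for FARSB to 2.03 for HARS1. Of the poly(A)-binding proteins only PABPC4 had a row, at 9.59 and 12.1 (0.793). Mitochondrial ribosomal proteins, the like-named parts of the second ribosome, had the higher 4-library mean in 29 of 56 rows, at a median log2 ratio of 0.05 and an SD over rows of 0.61, from 0.380 for MRPL13 to 2.30 for MRPL44. Their 23 rows with a mean of at least 100 had a median of -0.18, against 0.37 for the 61 cytosolic rows of that level. The difference between the lists was not tested.

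**Figure D5:**
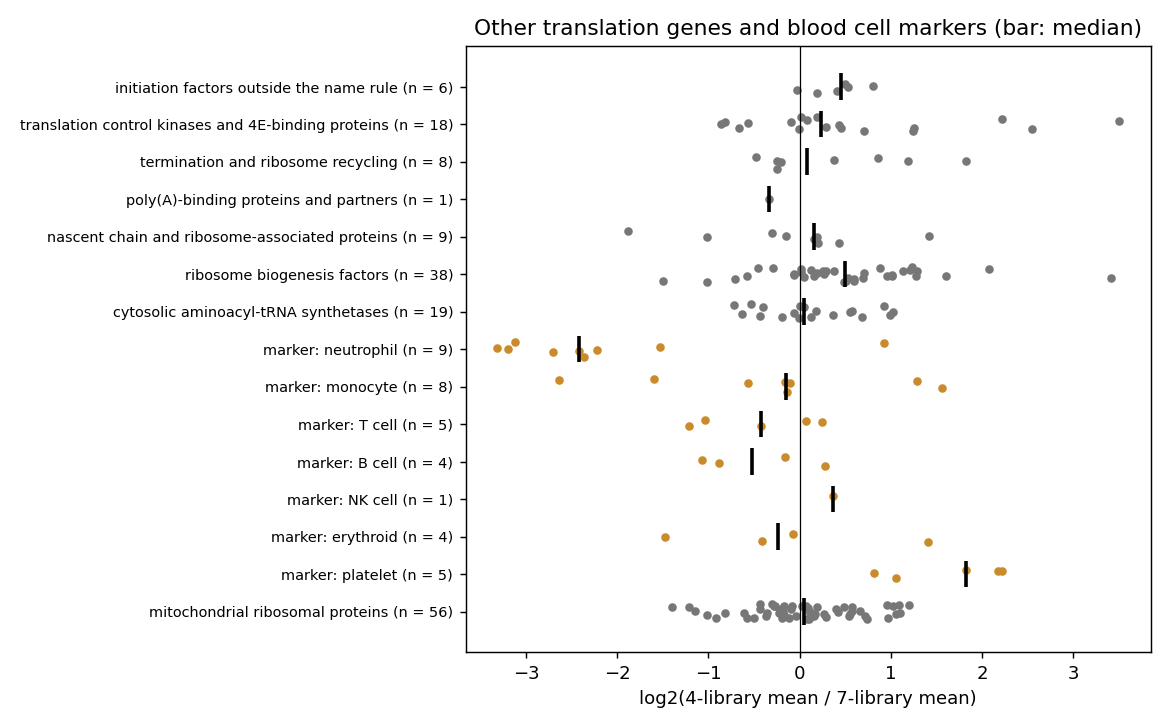
Ratio of the 2 means on a log2 scale for each row of the other translation lists (grey) and of the blood cell marker lists (orange), with black bars for list medians and n for the number of rows. Biogenesis factors lie mostly right of 0, synthetases and mitochondrial ribosomal proteins on both sides, neutrophil markers left except MPO, and platelet markers right.

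Blood cell markers moved with the same contrast. Of 15 neutrophil markers 9 had a row. Of these, 8 were at least 2 times higher in the 7-library mean, beside 10.4% of all rows. The other, MPO, was a weak row at 4.44 normalized counts in the 4-library mean and 2.34 in the 7-library mean (1.90). The 9 rows had a summed level of 2181 normalized counts in the 4-library mean and 12634 in the 7-library mean. MMP9, CXCR2 and S100A9 were 9.97, 9.15 and 6.50 times higher in the 7-library mean. By group size that is the control mean, whereas the study's text describes MMP9 and CXCR2 as raised in red tide. The conflict over direction bears on these markers as on every ratio given here. Of 11 platelet markers 5 had a row, each with the higher 4-library mean, with sums of 15250.2 and 4419 and a ratio of 4.64 for ITGB3. Monocyte markers (7 of 10 with a row) had sums of 2646 and 3451, and T cell markers (5 of 13) sums of 3932 and 4051. B cell markers (4 of 10) had sums of 809 and 853, and erythroid markers (4 of 14) sums of 226 and 529. For NK cells PRF1 alone had a row, at 6.95 and 5.41. No marker row had a mean of 0, but neither had any of the 15298 rows, whose smallest means were 0.160 (4-library) and 0.0826 (7-library). The part of these markers' cells in the ratios of the translation genes was not tested. The dates of sampling also differed between the groups, and by the study's methods so may the storage of the buffy coats, which cannot be told apart from the groups.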

How the data were processed

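RNA-seq libraries came from buffy coats of 4 red tide and 7 control animals. The authors trimmed reads with Cutadapt, aligned them with Bowtie2 to TriManLat1.0, discarded PCR duplicates and multiply mapped reads, and counted reads per gene sequence, with a counting program not given in the sources used here. Deposited values are a signal: counts scaled by DESeq size factors and averaged by the authors over each group and over all libraries. The table also holds the authors' fold change, log2 fold change, p-value and adjusted p-value, which were not used. Per-sample columns left unused numbered 0. Groups come from the sample titles. The libraries are separate animals, and p-values measure the spread between these libraries only.

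Records were matched to RefSeq symbols without version (10080 rows) or with it (1658 rows, 5 of them members). Ratios of group means were computed without pseudocount, counted past 2-fold and summarised by class in Python 3.11.15 with numpy 2.4.6 and pandas 2.3.3. What 1 read adds to each mean was found from the smallest means and refined by least squares. Whole reads were accepted where a single combination gave the mean to 6e-10 below 10 and 6e-09 above, true of 99.9% of rows up to a 4-library mean of 100 and 99.0% up to a 7-library mean of 6. The steps were tested on simulated data. Exact permutation tests were two-sided, over all 330 splits, adjusted by Benjamini-Hochberg over 4445 rows. The plan had adjusted over members only, which was replaced by all rows tested. Members and lists were chosen with earlier results of these data known.

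The 4 highest and 4 lowest ratios of each class, members past 2-fold, paralogs, members with reads in all 11 libraries, and the extremes of each other list were to be named; others were named after their values were seen. Levels per coding length were planned but not computed, since no sequence or transcript length was at hand. Alternatives were a pseudocount of 1, overall means of at least 10 or 100, centring, 1 row per symbol, matching with version, folds of 1.5 and 4, and leaving out libraries. The adjustment over all rows and the elongation class without EEF2K were added after seeing the data.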

Additional observations from a re-analysis of the deposited data

Results flagged for a closer look

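EIF2B3 (XM_004371808.1) had 1 library far from the other 3 of its group: 30.6 normalized counts in the library of size factor 0.620, below 80.7, 81.8 and 85.3. The gap to the nearest library was 0.916 of the whole range, above Dixon's critical value for 4 libraries. RPL10L (XM_004387881.1) had a single high library in each group, at 2.69 normalized counts in the 4 libraries and 0.578 in the 7, with a gap of 1.0 of the range both times; each is 1 read beside libraries at 0. For normally distributed values chance alone places about 1 group in 20 past such limits, and 18 groups were examined. That rate does not hold for RPL10L, where 1 read beside libraries at 0 fixes the gap at 1.0.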

How the results depend on the processing

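Group means carry no spread, so the ratios of abundant members have no error, and the recovered reads cover weak rows only. Levels per coding length were not run, since no lengths were at hand. The class medians stayed positive under every alternative that could be computed except 1: in rows with an overall mean of at least 100 the elongation median was -0.1097. It was 0.3668 with a pseudocount of 1. Centring on the median of all rows, which takes 0.14 from every value, gave 0.2593 for the large subunit, 0.1475 for the small subunit, 0.3582 for initiation and 0.364 for elongation. For the other lists it gave 0.3123 for other initiation factors, 0.09569 for control kinases, -0.05526 for termination, -0.4737 for the poly(A)-binding row, 0.02042 for ribosome-associated proteins, 0.3555 for biogenesis and -0.08774 for synthetases. Over all rows 23.9% were at least 2 times higher in the 4-library mean. Such rows numbered 1 in the large subunit and 0 with a pseudocount of 1 or a mean of at least 10 or 100. In the small subunit the count was 1, and 0 at a mean of at least 100 or a fold of 4. In initiation it was 5 of 30, and 3 at a mean of at least 10 or 100 and 1 at a fold of 4. Matching with version left only 3 initiation rows, of which 1 was past 2-fold. At a fold of 1.5 the counts in the 4 classes were 10 of 39, 9 of 27, 13 of 30 and 2 of 6. Over all rows that share was 33.8%. In the other direction 2 elongation rows were at least 1.5 times higher in the 7-library mean, beside 20.2% of all rows.

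With 1 of the 4 libraries left out in turn, the log2 ratio changed sign for EIF2B3 (range -0.2722 to 0.0876), EIF3L (-0.4303 to 0.2002), RPLP0 (-0.685 to 0.3644), RPS24 XM_004383164.1 (-0.2759 to 0.4345) and EEF1A2 (-1.273 to 1.104). With any 1 of the 11 left out, the exact permutation p was 0.025 to 0.367 for EIF3F, 0.3 to 1.0 for RPL10L and 0.525 to 0.762 for EEF1A2; the 0.025 came when the library with no EIF3F read, of size factor 0.620, was left out. On log2 of the normalized count plus 1, the exact permutation p of RPS18 was 0.0424, or 0.254 adjusted over the 4445 rows. That of EIF4B XM_004373998.1 was 0.00303, or 0.143 adjusted. No paired analysis was possible because the columns hold group means and the recovered libraries carry no replicate numbers.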
